A study of Saccharomyces cerevisiae with 6 samples.

Results

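Cytosolic ribosomal proteins are the protein part of the ribosome outside mitochondria, and budding yeast carries most of them as pairs of duplicated genes named A and B. The genes measured here were chosen by name: every gene whose symbol is RPL (large subunit) or RPS (small subunit) with a number and an optional A or B, together with the stalk proteins RPP0, RPP1A, RPP1B, RPP2A and RPP2B. Of the 5449 genes of Saccharomyces cerevisiae on the array, 127 met that rule, 70 of the large subunit, 52 of the small subunit and 5 of the stalk. Where a gene had several probe sets, the one with the highest mean over the 6 arrays was used. The reference gene table held 137 genes of such names. The 10 without a listed probe set were not analysed here, and 9 of those are the A or B partner of a measured gene. Both partners were measured in 50 pairs, 9 genes were measured without their partner, and 18 genes have no A or B copy.

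The arrays came from yeast of the filamentous Σ1278b background, 3 of a wild type labelled diploid and 3 of a pun1 deletion strain labelled as a homozygous diploid. Each array carried polyadenylated RNA from its own culture, taken 6 h after transfer from rich YPD medium at 30 °C (OD600 of 0.6) to SLAD, a medium low in nitrogen with 2% glucose and amino acids for the strains' auxotrophies. The design asks which transcripts depend on PUN1, which encodes a plasma membrane protein, when nitrogen is low. PUN1 itself read 13.35, 13.50 and 13.55 (log2) on the wild-type arrays and 8.33, 4.83 and 4.93 on deletion replicates 1, 2 and 3. The deletion arrays did not carry the marker pattern of an a/alpha diploid: the 5 alpha-cell markers and the 7 haploid markers examined were all higher there. The probe set listed for HMRA1, a copy of the a1 gene, was above background on the 3 wild-type arrays alone. The effect of losing PUN1 and the effect of that difference in mating-type expression cannot be told apart.

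Ribosomal protein genes are among the most heavily transcribed genes of a growing yeast cell. Rap1 and the pair Fhl1 and Ifh1 hold their promoters active, Sfp1 and the TORC1 and protein kinase A pathways tie them to nutrients, and Crf1 can displace Ifh1 when TORC1 is inhibited. The copies of a pair usually encode identical or nearly identical proteins. Several pairs are held in balance by feedback in which the protein limits the splicing or stability of its own transcript, often through an intron.

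The readings were bright and nearly level between the strains. On the log2 scale of the probe sets the 127 genes had a median level of 14.28, against 10.87 over all genes, with the highest single value on any array at 15.15. Of the 127, 63 were among the 100 brightest genes, 98 among the 200 brightest, and 118 lay above the 90th percentile. The median over the 127 genes was 14.25, 14.27 and 14.33 on the arrays of wild-type replicates 1, 2 and 3, while deletion replicates 1, 2 and 3 gave 14.27, 14.28 and 14.28. These medians overlapped between groups, with means of 14.28 ± 0.04 and 14.28 ± 0.01 (SD, n = 3 per group; two-sided exact permutation p = 1, where 3 against 3 cannot go below 0.1). The highest value of each array lay between 15.11 and 15.15. A shift shared by these genes that the authors' processing removed would not show in the medians, and this was not tested. A control for residual 25S ribosomal RNA varied far more, from 8.85 to 12.8, and was high on wild-type replicate 1 and deletion replicates 2 and 3.

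Only 3 of the 127 genes passed the test between strains, RPS9A, RPL22B and RPS22B, all lower in the deletion, and 0 were higher. That is 2.36% of them, whereas 25.8% of all genes passed, 9.89% lower and 15.9% higher (limma, Benjamini-Hochberg adjusted p below 0.05 over all 5498 probe sets). At an unadjusted p under 0.05 the counts for the 127 were 4 lower, RPS14B being the other, and 1 higher, RPL15A, against 39.3% of all genes at that threshold, 15.5% lower and 23.8% higher; limma with a trend in the variance and robust settings called RPL15A higher and RPL8A lower in addition. After the arrays were centred on their medians the share of all genes called lower became 13.0%, out of 25.9% called. The median difference, deletion minus wild type, was -0.00134 over the 127 genes and 0.02 over all genes (log2). For 120 of the 127 the difference was no more than 0.1 in either direction. The groups failed to overlap in 20 of them, 13 lower and 7 higher, or 15.7%, against 45.1% of all genes. In a culture, fewer cells with a message and less message per cell cannot be told apart.

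**Figure D1:**
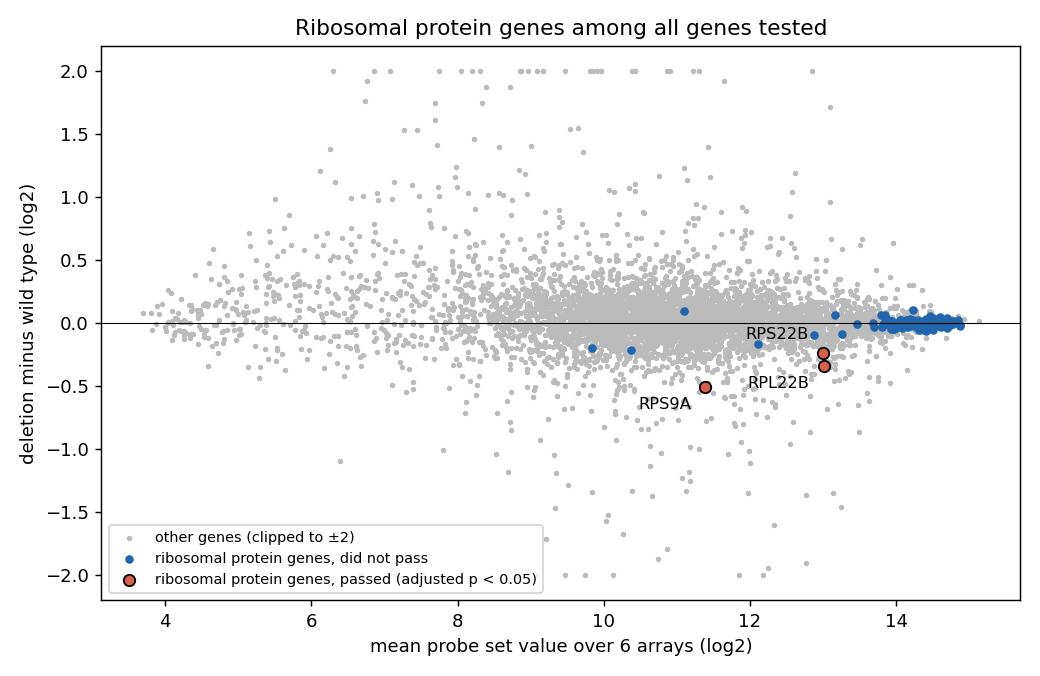
Difference between strains (deletion minus wild type, log2) against the mean probe set value over the 6 arrays (log2), 1 point per gene. The ribosomal protein genes form a narrow band near 0 at the bright end, and the 3 that passed, RPS9A, RPL22B and RPS22B, lie below 0 at lower levels.

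Level and outcome went together. Above the 90th percentile of level, 0 of 118 ribosomal protein genes passed in limma (1, RPL15A, at an unadjusted p under 0.05), with differences from -0.09 to 0.10, while 79 of 427 other genes there, or 18.5%, passed, 40 lower and 39 higher. At or below that percentile were 9 ribosomal protein genes, of which 3 passed, beside 1323 of 4895 other genes, or 27%. The 9 genes are few for a share. The spread within groups had a median SD of 0.0267 for the 118 bright genes and 0.0348 for the 427 others. Arrays flatten out near the top of their range, and the part this plays in the small differences of bright genes was not tested.

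RPS9A (YPL081W) encodes one of the copies of uS4, a small-subunit protein that binds ribosomal RNA early in assembly. Wild-type replicates 1, 2 and 3 gave 11.73, 11.52 and 11.68 (log2), and deletion replicates 1, 2 and 3 gave 11.14, 11.11 and 11.15. Every deletion array lay below every wild-type array. The difference was -0.51 (SE 0.061, n = 3 per group, limma adjusted p = 0.00169), which puts the deletion at 70.2% of wild type. Its partner RPS9B (YBR189W) read 14.24, 14.24 and 14.28 in wild type and 14.25, 14.28 and 14.26 in the deletion, a difference of 0.01 (95% interval -0.08 to 0.10). The RPS9B readings of the strains overlapped. In the RPS9 pair the A reading minus the B reading was therefore -2.61 ± 0.10 (log2, SD, n = 3) in wild type and -3.13 ± 0.03 in the deletion.

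RPL22B (YFL034C-A) encodes the minor copy of eL22, a large-subunit protein that is known to bind the intron of its own transcript and hold back its splicing. Its readings were 13.07, 13.22 and 13.27 (log2) in wild-type replicates 1, 2 and 3 and 12.66, 12.92 and 12.95 in deletion replicates 1, 2 and 3. The groups did not overlap, and deletion replicate 1 was the lowest of all. The difference was -0.34 (SE 0.093, limma adjusted p = 0.0378), or 78.9% of wild type. Leaving out 1 array ended the call for each array except wild-type replicate 1 (adjusted p = 0.0507 to 0.111). On the 3 arrays of low 25S signal the difference was -0.59. Only 1 of them is a deletion array, replicate 1, and the fit assumes that it varies like the wild type. That array also had the highest PUN1 reading of the deletion arrays, 8.33. RPL22A (YLR061W) stayed between 14.25 and 14.29 on all 6 arrays, with a difference of -0.0028 (95% interval -0.09 to 0.08).

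RPS22B (YLR367W), a copy of the small-subunit protein uS8 whose gene carries introns, read 13.13, 13.11 and 13.14 (log2) in wild-type replicates 1, 2 and 3. In deletion replicates 1, 2 and 3 it read 12.81, 12.87 and 12.99, all below wild type. The difference was -0.24 (SE 0.054, limma adjusted p = 0.0202), or 84.8% of wild type. It no longer passed when deletion replicate 2, or either of wild-type replicates 2 and 3, was left out (adjusted p between 0.0556 and 0.0776). RPS22A (YJL190C) read 13.79, 13.78 and 13.92 against 13.87, 13.90 and 13.86, which overlapped, at a difference of 0.05 (adjusted p = 0.536).

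RPS14B (YJL191W), the minor copy of uS11, is the classic yeast example of a ribosomal protein gene held down by its own product. Its values were 12.11, 12.17 and 12.30 (log2) in wild type and 12.03, 11.96 and 12.09 in the deletion. These did not overlap, but the difference of -0.16 (SE 0.061) did not pass the test (limma adjusted p = 0.0920). RPS14A (YCR031C) read 14.55, 14.54 and 14.57 against 14.53, 14.55 and 14.54, a difference of -0.01.

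**Figure D2:**
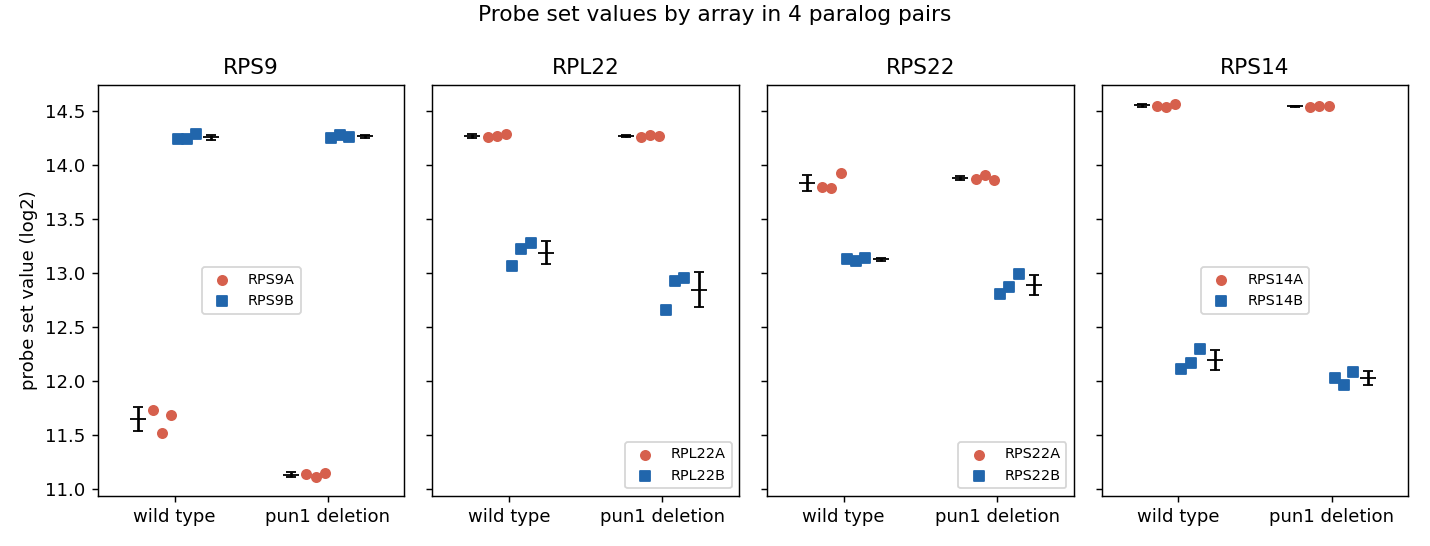
Probe set values (log2) of the A gene (circles) and B gene (squares) of RPS9, RPL22, RPS22 and RPS14 on the 3 wild-type and 3 deletion arrays, with the mean and SD beside each group of points. In each panel the dimmer gene, RPS9A, RPL22B, RPS22B or RPS14B, sits lower in the deletion without overlap, and the brighter partner overlaps.

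Other genes known for feedback on their own message gave no call. RPL30, whose protein blocks splicing of its transcript, read 14.64 ± 0.02 in wild type and 14.66 ± 0.03 in the deletion (SD, n = 3 per group). RPS28B, whose message is decayed with the help of its own protein, differed by 0.02 (95% interval -0.07 to 0.12) and RPS28A by -0.02. RPL2A and RPL2B, the copies of a protein at the heart of the large subunit, differed by -0.02 and -0.01, and the chosen RPL2A probe set is of the shared kind described next.

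Reading A against B depends on what each probe set can tell apart. By the manufacturer's naming, a probe set ending in _s_at matches more than one transcript and one ending in _x_at may also bind others. Among the 127 genes, 104 were read by a plain _at probe set, 19 by an _s_at and 4 by an _x_at. Those shares are high for this array, where 128 of the 5498 tested probe sets carry either suffix. All 9 genes measured without their partner were read by an _s_at probe set, so their values may hold both copies. In 37 of the 50 pairs both genes were read by a plain _at probe set, and in the other 13 at least one was not. In those 13, each gene read by an _s_at or _x_at probe set, except RPL4A, also had a plain _at probe set. It was dimmer and so was not the one used. Probe sets also differ in brightness for the same amount of message, so the order of A and B below describes the readings and was not tested. The change of the gap between strains is free of any constant difference in brightness.

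The A reading was above B on all 6 arrays in 25 pairs, B was above A in 20, and 5 pairs changed order between arrays. Among the 37 pairs with plain probe sets the counts were 21, 13 and 3. The typical gap was small, with a median size of 0.27 (log2) over the 50 pairs, and 6 pairs differed by more than 1. RPL4 had the widest gap, RPL4A at 14.74 and RPL4B at 10.37 on average, but RPL4A was read by an _s_at probe set and may include RPL4B message. RPL15, a core large-subunit protein, came next with a mean gap of 3.14, from RPL15A at 14.23 and RPL15B at 11.09, and both of its probe sets are plain. RPS9 followed with B above A by a mean gap of -2.87, then RPS14 with 2.44, RPS19 with -1.42 (RPS19B by an _s_at probe set) and RPL22 with 1.25. At the other end the mean A minus B was -0.01 for RPL19, -0.03 for RPS23, 0.03 for RPL16 and 0.04 for RPS26, less than or close to the differences between single arrays.

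**Figure D3:**
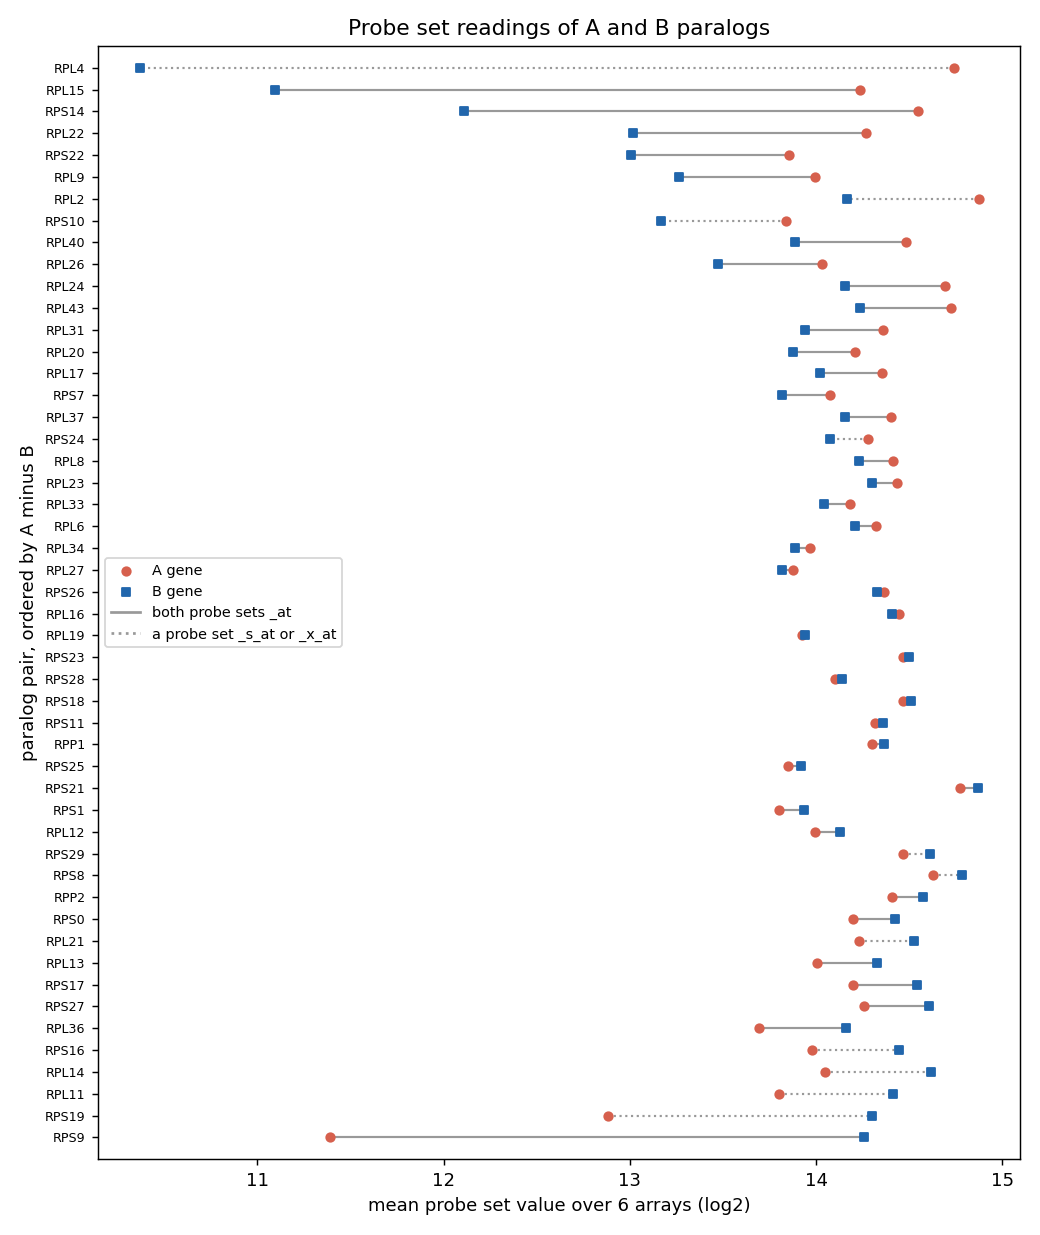
Mean probe set value over the 6 arrays (log2) of the A gene (circle) and B gene (square) of each of the 50 pairs, ordered by A minus B. Solid lines join pairs read by plain _at probe sets and dotted lines pairs with an _s_at or _x_at probe set; most pairs lie close together near 14, and RPL4, RPL15, RPS14 and RPS9 are far apart.

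The gap between partners changed between strains in 3 of the 50 pairs, and those were the pairs of the 3 called genes. Each of these gaps holds the called gene's own readings on the same arrays, so the gap calls are not independent of the gene calls. The gap rows were tested in a single limma fit together with all probe sets, in which 25.5% of rows passed; the 3 pairs are 6% of the gap rows. Groups did not overlap in 11 of the 50 gaps, or 22%, beside 45.1% of all genes. In RPS9 the A minus B gap was -2.51, -2.72 and -2.60 in wild-type replicates 1, 2 and 3 and -3.11, -3.16 and -3.11 in deletion replicates 1, 2 and 3. That change of -0.52 (SE 0.059, adjusted p = 0.00147) widened the gap.

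The RPL22 gap was 1.19, 1.05 and 1.02 in wild type and 1.60, 1.36 and 1.31 in the deletion. It widened by 0.34 (SE 0.086, adjusted p = 0.0302), which did not pass with deletion replicate 2, or either of wild-type replicates 2 and 3, left out (adjusted p between 0.0647 and 0.0935), and by 0.56 on the 3 arrays of low 25S signal. The RPS22 gap rose from 0.66, 0.68 and 0.78 to 1.06, 1.04 and 0.88. Its change was 0.28 (SE 0.063, adjusted p = 0.0191), and leaving out replicate 2 of either strain ended the call (adjusted p = 0.0659 and 0.0744). All 3 pairs were read by plain _at probe sets, and in each the dimmer partner carried the change.

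Over the 50 pairs the median change of the gap was -0.00030 (log2), with values below 0 in 25 pairs and above 0 in 25. The 50 A genes had a median difference of -0.010 and the 50 B genes of -0.0011. Called were 1 A gene and 2 B genes, or 2% and 4%, beside 25.8% of all genes. When the pairs were split by level instead, the 50 dimmer genes held all 3 calls and ranged from -0.51 to 0.10. The 50 brighter genes ranged from -0.06 to 0.10 with 0 calls (1 at an unadjusted p under 0.05, beside 39.3% of all genes). Dimmer and brighter genes alike were called less often than all genes. The medians were -0.0045 for the dimmer and -0.0036 for the brighter genes.

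The other gaps gave smaller values, and none passed. The RPS14 gap changed by 0.15 (95% interval 0.02 to 0.29, not adjusted for the number of tests; adjusted p = 0.0974) without overlap between groups. RPS18, of the small-subunit head, changed by 0.10 (adjusted p = 0.175), RPL9 by 0.09 (adjusted p = 0.221) and RPL8 by -0.09 (adjusted p = 0.126). RPL34, RPL31 and RPL36 had values of -0.07, -0.07 and -0.06. The RPL15 gap, wide as it is, changed by 0.0038 with a 95% interval of -0.10 to 0.11: RPL15A and RPL15B read higher by 0.10 and 0.10, and neither passed (adjusted p = 0.122 and 0.286). For RPL4 and RPS19 the intervals were wide, -0.27 to 0.68 and -0.45 to 0.21.

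**Figure D4:**
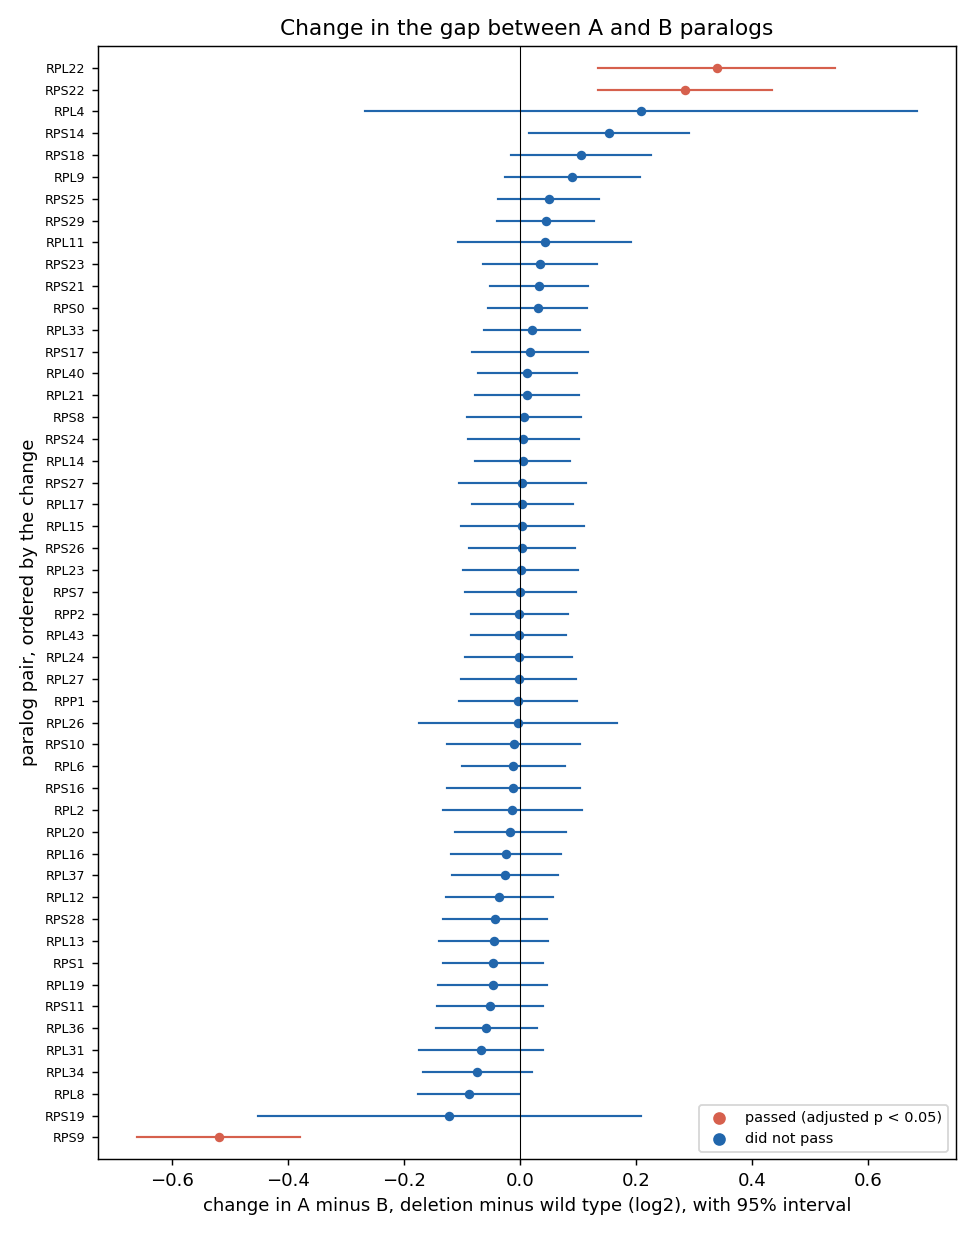
Change of the A minus B gap (deletion minus wild type, log2) in each of the 50 pairs, with 95% intervals from the limma fit that are not adjusted for multiple tests. RPS9 stands to the left at -0.52, RPL22 and RPS22 to the right at 0.34 and 0.28, and most other pairs lie within 0.1 of 0.

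The widest intervals belonged to genes that 1 array read high. Wild-type replicate 3 was the highest of the wild-type arrays for 100 of the 127 genes, or 78.7%, against 31.2% of all genes tested, and it exceeded both other wild-type arrays by over 0.1 in 28 of them. RPL41A, the smallest ribosomal protein and the dimmest member, read 9.73 and 9.69 on wild-type replicates 1 and 2 and 10.40 on replicate 3, against 9.72 to 9.79 in the deletion. RPL4B read 10.14, 10.33 and 10.97, and RPS19A 12.80, 12.68 and 13.31. None of those 3 genes passed, and the differences of RPL41A and RPL4B went from -0.20 and -0.22 to 0.03 and 0.03 without that array. The median difference over the 127 genes went to 0.02, and RPS9A alone was called, where 18.5% of all genes were. RPL22B and RPS22B then had differences of -0.30 and -0.23 (adjusted p = 0.111 and 0.0622).

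Genes without a copy and the stalk proteins gave no call. Of the 18 genes with no A or B, 0 passed in limma, beside 25.8% of all genes, and 0 were under an unadjusted p of 0.05, beside 39.3%; their differences ran from -0.02 to 0.05. The 5 that differed most were RPS31, made as a fusion with ubiquitin, at 0.05, RPS3, a protein at the entry channel for messenger RNA, at 0.04, RPP0 at 0.04, RPL10, a large-subunit protein added late in assembly, at 0.02 and RPS15 at -0.02. RPP0, the base of the stalk that recruits elongation factors, read 14.66, 14.70 and 14.67 in wild type and 14.70, 14.72 and 14.73 in the deletion, a difference of 0.04 (95% interval -0.05 to 0.13). RPP1A, RPP1B, RPP2A and RPP2B, which pair on that base, differed by 0.02, 0.02, 0.03 and 0.03, and the gaps of RPP1 and RPP2 changed by -0.0031 and -0.00088.

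The 9 genes read without their partner, such as RPL7A and RPL1B at differences of 0.01 each, had a median of 0.0096. They gave 0 calls, beside 25.8% of all genes. By subunit the median differences were -0.0016 over the 70 large-subunit genes, with 1 called, and -0.0034 over the 52 small-subunit genes, with 2 called. Those calls are 1.43% and 3.85%, beside the same share of all genes.

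The brightest members were RPL2A at 14.87, RPS21B at 14.87, RPL10 at 14.84, RPS8B at 14.78 and RPS21A at 14.77, whose differences lay between -0.02 and 0.02. The 5 dimmest were RPL41A at 9.84, RPL4B at 10.37, RPL15B at 11.09, RPS9A at 11.39 and RPS14B at 12.11. All 127 genes read above the background of every array. Of the 20 genes with more than 1 probe set, 0 had probe sets that differed in call. RPL18B was the widest case: its chosen _s_at probe set differed by -0.0039 and its plain _at probe set by -0.25, which did not pass (adjusted p = 0.195).

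Regulators of these genes were called about as often as other genes. The list of regulators held transcription factors, kinases, chromatin proteins and other proteins linked to ribosomal protein genes, among them UTP22, RRP7 and MRS6. Of its 28 measured genes, 5 were lower, 3 higher and 20 did not pass. That is 28.6% called beside 25.8% of all genes, and the list's median was -0.04. CRF1, the corepressor, read 7.08, 7.30 and 7.18 (log2) in wild type and 8.31, 8.29 and 8.19 in the deletion, higher by 1.08 (SE 0.065, limma adjusted p = 8.8e-05). RAP1 had a difference of -0.37 (SE 0.066, adjusted p = 0.00806), going from 10.30 ± 0.05 to 9.93 ± 0.12. TOR1, a kinase of TORC1, differed by -0.33 (adjusted p = 0.00372), and YAK1, a kinase that acts on Crf1, by -0.43 (adjusted p = 0.0165). On the 3 arrays of low 25S signal TOR1 and YAK1 did not pass (adjusted p = 0.0875 and 0.154), and YAK1 differed by -0.19. YAK1 also lost its call without deletion replicate 2 or 3 (adjusted p = 0.0649 and 0.0523).

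Partners of the ribosome outside the family were counted in the same way. Of 20 chaperones and importers of ribosomal proteins, 0 passed in limma, beside 25.8% of all genes, and 1, BTT1, was under an unadjusted p of 0.05, beside 39.3%. LTV1, a small-subunit export factor, and BTT1, a subunit of the nascent chain complex, were named by size and differed by -0.25 and 0.15 (adjusted p = 0.131 and 0.0603). LTV1 passed with the replicate number as a block (adjusted p = 0.0173) and without deletion replicate 1 (adjusted p = 0.0264), and differed by 0.035 on the 3 arrays of low 25S signal. The list of initiation and elongation factors also held STM1 and ASC1. Of its 27 measured genes, 2 were higher and 1 lower, or 11.1%, beside 15.9% of all genes higher and 9.89% lower. The median was -0.04. HEF3, the second gene for elongation factor 3, was higher by 0.61 (SE 0.053, adjusted p = 0.000495). It was dim, with means of 7.86 in wild type and 8.46 in the deletion. CAM1, a subunit of the exchange factor of elongation factor 1, was higher by 0.33 (SE 0.036, adjusted p = 0.00117). FUN12, initiation factor 5B, differed by -0.18 (adjusted p = 0.0287), and did not pass with any of wild-type replicates 1 and 2, deletion replicates 2 and 3, or the 3 arrays of high 25S signal left out (adjusted p between 0.0645 and 0.341).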

How the data were processed

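The files held 1 deposited log2 value per probe set and array, made by the authors with GCRMA, per the submitters' processing notes, which also list GCOS 1.1 and limma with their order not given. Base 2 was read from the range of the values. Gene symbols came from the annotation table of the platform, updated with the R64 gene table; the build behind the probes is unknown, and positions and sequences are left out. The 5498 probe sets of S. cerevisiae genes (5449 genes) were tested in R 4.3.3 with limma 3.58.1 (eBayes, no covariates, two-sided, Benjamini-Hochberg, threshold 0.05). For each of 50 pairs the A value minus the B value on each array was added as a row to a further fit of the same kind over 5548 rows. Background on an array was the 95th percentile of the 1747 annotated probe sets whose gene was absent from the R64 gene table. These were taken as probe sets of Schizosaccharomyces pombe, which the array also carries. Columns belonging to other series numbered 0.

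Replicates are separate cultures per the labels, and 3 arrays per group limit the precision of each value. Both groups carry replicate numbers 1 to 3. Deviations from the group means correlated across probe sets at 0.351, 0.213 and 0.112 for arrays of the same number, all above 0.1. Pairing by number was used only in an alternative fit, as a block. The pairing is weak: wild type 2 with deletion 3 and wild type 3 with deletion 2 gave 0.183 and 0.161, and over the 127 genes alone the same-number values were 0.466, -0.342 and 0.095; reported values come from the fit without the block. The genes, lists and tests were chosen with earlier results of these data known. Named genes are those that passed, the 12 pairs with the largest change of the gap, the 6 widest and 4 narrowest pairs, the 5 brightest and 5 dimmest genes, the 5 genes without a copy that differ most, the stalk proteins, genes with textbook feedback, and up to 4 called genes of each other list (2 where none passed). RPL7A, RPL1B, RPL18B, RPL8A and RPS19A were named after their values were seen, or as part of a named pair. The fits were tested on simulated data. Alternatives were the replicate block, each array left out, median centring, quantile normalization, a filter on dim probe sets, trended and robust variance, the 3 arrays of high 25S signal left out, the mean of a gene's probe sets and, added after seeing the data, plain _at probe sets only. Figures were drawn with matplotlib 3.10.9.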

Additional observations from a re-analysis of the deposited data

How the results depend on the processing

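With the replicate number as a block, the same 3 ribosomal protein genes and the same 3 gaps passed, 28.6% of all genes were called, and 1 chaperone or importer, LTV1, passed where 0 had; no other call on a named gene or gap changed with the pairing. Leaving out each array in turn gave 1 to 3 genes called lower, 1 to 3 gaps, 2 to 6 initiation and elongation factors, 4 to 9 regulators and 0 to 1 chaperones, RPS9A and the RPS9 gap passing each time. Without deletion replicate 2, 14.5% of all genes were called. Near-zero differences changed sign over those fits and ranged from -0.011 to 0.0070 for RPL22A, -0.041 to 0.037 for RPL2B, -0.32 to 0.031 for RPL41A, -0.39 to 0.029 for RPL4B, -0.036 to 0.0057 for RPS28A and -0.023 to 2.49e-05 for RPS8B. The gap changes ranged from -0.027 to 0.025 for RPL15, -0.033 to 0.38 for RPL4, -0.23 to 0.046 for RPS19 and -0.010 to 0.024 for RPS26.

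On the 3 arrays of low 25S signal the single deletion array, replicate 1, is assumed to vary like the wild type. PUN1 read 8.33 on that array. Values that changed sign in this fit were LTV1 0.035, RPL10 -0.0033, RPL15B -0.0090, RPL30 -0.023, RPP1A -0.031, RPP2A -0.016, RPP2B -0.0098, RPS28B -0.035, RPS31 -0.010, RPS8B 0.015 and RPS9B -0.0072, with gap changes of 0.031 for RPL16, 0.0024 for RPL31 and -0.0053 for RPS26. Median centring moved the members' median difference to -0.033 and turned RPL10 to -0.0073, RPL30 to -0.012, RPP1A to -0.016, RPP1B to -0.013, RPP2A to -0.0017, RPP2B to -0.00077, RPS21A to -0.014, RPS28B to -0.0080 and RPS9B to -0.022. Trended, robust variance called 5 factors and 1 ribosomal protein gene higher. The mean of a gene's probe sets gave a median gap size of 0.25, and plain probe sets only, an alternative added after seeing the data, gave 0.0087 for RPL2A and -0.0028 for the RPS23 gap. The causes were not tested. Further quantile normalization and the filter on dim probe sets left the 3 called genes and 3 called gaps as they were. Quantile normalization moved the differences of HEF3 to 0.415, CRF1 to 0.88, BTT1 to 0.046 and RAP1 to -0.41, with no change in their calls.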
